A study of Mus musculus with 6 samples.

Results

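The 9 genes described here encode plasma membrane carriers of amino acids or, for Slc3a2, the heavy chain that such carriers pair with. The word carriers below covers all 9. They were measured in mouse CD8 T cells labelled as wild type or Utx knockout: Slc7a5, Slc3a2, Slc7a6, Slc1a5, Slc1a4, Slc7a1, Slc38a1, Slc38a2 and Slc43a1. They were chosen by symbol, all 9 were found among the 25655 genes listed, and all 9 were among the 10590 genes with enough reads to be tested. Utx, encoded by Kdm6a, is a demethylase of lysine 27 on histone H3, and the study compared cells labelled wild type (WT) with cells labelled Utx knockout (Utx KO). Both groups were splenic CD8 T cells of C57BL/6 females, with 3 libraries each, labelled biological replicates. In both, naive cells received plate-bound anti-TCR-beta (3 µg/ml) and anti-CD28 (1 µg/ml) together with interleukin 2 (10 ng/ml) for 2 days, then interleukin 2 alone for 3 days, and RNA was taken at day 5. The sources used here are the sample labels and the deposited tables. The age of the mice, the deleted part of the gene, any Cre driver, and whether replicates came from separate animals are not stated in those sources. P-values therefore measure only the spread between these libraries, which may be technical.

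Resting T cells take up few amino acids, and activation raises the carriers that feed protein synthesis and growth. Slc7a5 (LAT1) exchanges intracellular glutamine for leucine and other large neutral amino acids, and it works only as a heterodimer with the heavy chain Slc3a2 (4F2hc, CD98), which carries it to the cell surface. Leucine and arginine are sensed inside the cell by the mTORC1 pathway. The sodium-dependent carriers Slc1a5, Slc38a1 and Slc38a2 supply glutamine and other neutral amino acids, and Slc7a1 supplies arginine and lysine.

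Values are CPM, a gene's reads relative to all reads of its library on a common scale. The libraries tag the 3' end of each transcript, so gene length does not scale a value. Recovered totals ran from 1619085 to 2529113 reads per library, and a count of 0 allows up to 3 reads, or 1.19 to 1.85 CPM, which covers counting error only. T-cell markers (7 genes) summed to 2173 to 2267 CPM in WT and 2396 to 2442 CPM in Utx KO, with Cd3d, Cd3e and Cd8b1 called higher and Cd2 lower. The call of Cd8b1 was lost in 5 of 16 alternatives, with DESeq2 (adjusted p = 0.130) and without WT replicate 1 (0.109) or 2 (0.149) or Utx KO replicate 1 (0.0770) or 2 (0.0738), and that of Cd3e in 2, with DESeq2 (0.0514) and without WT replicate 1 (0.0748). Cd4, Cd79a, Ms4a1, Ighm, Lyz2, Itgam, Adgre1, Ncr1, Hbb-bs and Jchain were at 0 in all 6 libraries. Of the markers of other cells, B-cell genes summed to 2.76 to 5.47 CPM in WT and 0.571 to 1.85 CPM in Utx KO, myeloid genes, most of it Cst3, to 71.9 to 86.6 and 78.2 to 88.9 CPM, natural killer genes to 0.395 to 1.09 and 0 to 1.85 CPM, and red-cell genes to 0 to 0.461 and 2.28 to 3.09 CPM. Mitochondrially encoded genes held 2.07% to 2.51% of reads in WT and 1.53% to 1.83% in Utx KO; the part of these shifts in the results below was not tested. Kdm6a had 44.3, 49.3 and 53.6 CPM in the WT libraries against 27.8, 39.4 and 31.5 CPM in the Utx KO libraries, in replicate order (limma adjusted p = 0.0123). A 3' tag outside the deleted part checks nothing, and the call was lost with DESeq2 (adjusted p = 0.0985), or when WT replicate 2 (0.0521) or 3 (0.0710) or Utx KO replicate 1 (0.0526) was left out.

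Slc7a5, the light chain that carries leucine, was lower in Utx KO, and it was the only carrier of the 9 that passed the test. Over all tested genes 10.8% passed in either direction, 5.51% as lower and 5.28% as higher. The 8 other carriers had log2 fold changes from −0.21 to 0.42, none past the threshold. The median log2 fold change of the 9 carriers was 0.05, beside 0.01 over all tested genes, with 6 of the 9 higher in Utx KO. Fold changes are on the scale of log2(CPM + 1), Utx KO minus WT, and the adjusted p comes from limma over all tested genes with a threshold of 0.05. In these bulk samples, fewer cells that use a gene and less of its RNA per cell cannot be told apart.

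**Figure D1:**
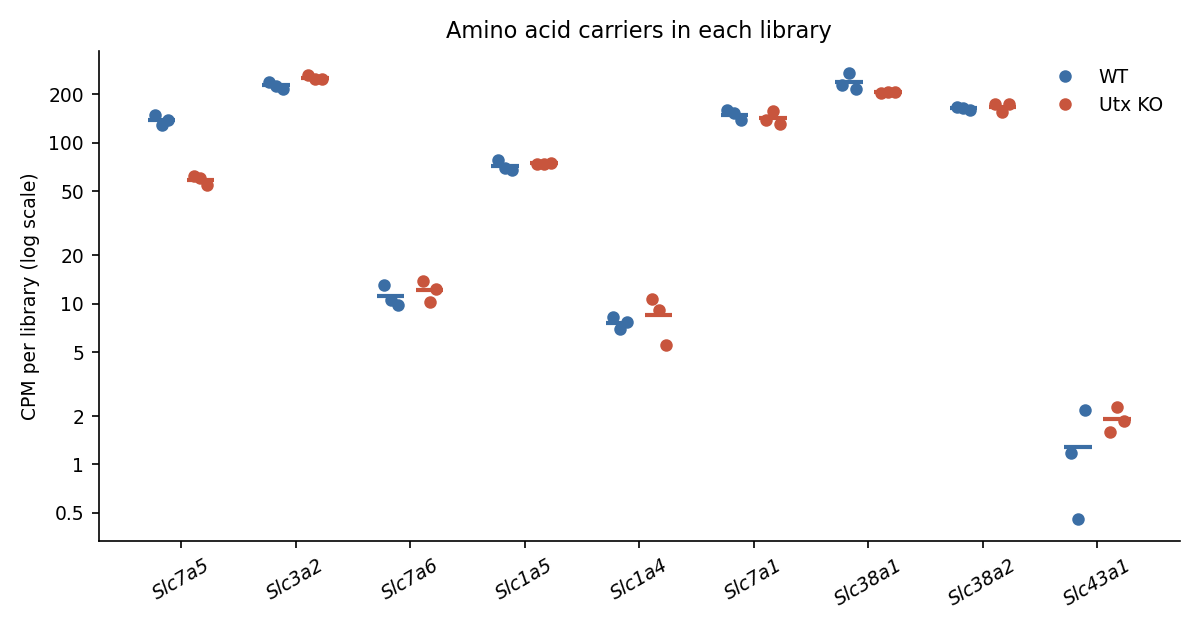
CPM of the 9 carriers on a log axis, with 1 point per library (replicates 1 to 3 from left to right) and a bar at the mean of 3 libraries, WT in blue and Utx KO in red. The Slc7a5 points of Utx KO (54.4 to 62.0 CPM) lie below all WT points (128 to 149 CPM), and of the 8 other carriers only Slc3a2 and Slc38a1 have groups that do not overlap. Groups do not overlap for 26.5% of all tested genes.

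Slc7a5 (ENSMUSG00000040010, chromosome 8, 121881150 to 121907694 in GRCm38, minus strand) had 149, 128 and 138 CPM in WT, against 62.0, 60.5 and 54.4 CPM in Utx KO, each in the order of replicates 1, 2 and 3, as below. Every Utx KO library lay below every WT library, with 88 to 156 reads behind each Utx KO value and 253 to 376 behind each WT value. The means were 138 ± 10.3 and 59.0 ± 4.05 CPM (SD, n = 3), a level 57.4% lower in Utx KO. The log2 fold change was −1.22 (SE 0.10, 95% interval −1.42 to −1.01, limma adjusted p = 4.8e-09). Its value ran from −1.27 to −1.16 over 16 alternative settings, with an adjusted p of at most 1.65e-07, and it was called under each of them. A fall of at least this size was called for 131 genes, 1.24% of those tested.

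Slc3a2 (ENSMUSG00000010095, chromosome 19, 8706882 to 8723369, minus strand), the heavy chain without which Slc7a5 does not reach the cell surface, was not called. It was at 238, 227 and 217 CPM in WT and at 266, 248 and 250 CPM in Utx KO. All Utx KO libraries lay above all WT libraries, although by a margin smaller than the range within WT. The log2 fold change was 0.16 (SE 0.07, 95% interval 0.02 to 0.30), with an unadjusted p of 0.0263 and a limma adjusted p of 0.150 (0.123 to 0.506 over the alternatives). The 95% interval leaves a fall of the size seen in Slc7a5 outside its bounds.

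Relative to its heavy chain, Slc7a5 was lower in every Utx KO library. The ratio of Slc7a5 to Slc3a2 was 0.624, 0.565 and 0.637 in WT against 0.233, 0.244 and 0.218 in Utx KO, with a wide gap between the groups. Such a ratio of reads does not depend on the scaling of the libraries. On the log2 scale with 1 CPM added to both terms, it was lower by 1.38 in Utx KO, that is 0.384 times the WT ratio (exact permutation test, two-sided, p = 0.1, the smallest that 3 against 3 libraries allow, and 0.2 adjusted over the 4 ratios tested).

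**Figure D2:**
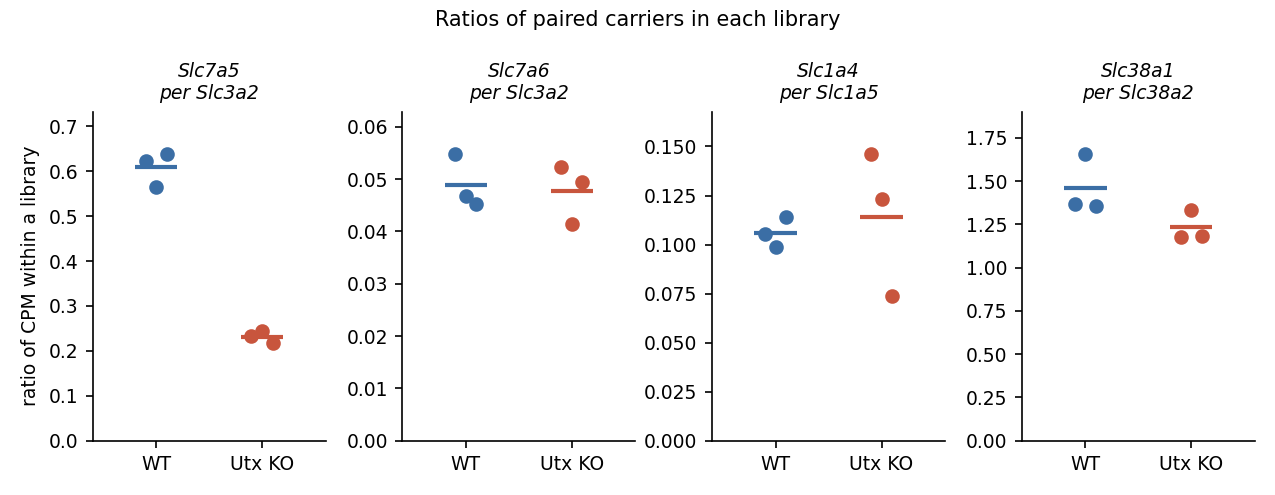
Ratio of the CPM of 2 carriers within each library, 1 panel per pair with its own axis from 0, 1 point per library and a bar at the mean of 3 libraries. Slc7a5 per Slc3a2 is 0.565 to 0.637 in WT and 0.218 to 0.244 in Utx KO, and the points overlap between genotypes for Slc7a6 per Slc3a2 and Slc1a4 per Slc1a5.

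Slc7a6 (y+LAT2; ENSMUSG00000031904, chromosome 8, 106168857 to 106198706, plus strand), another light chain of Slc3a2 that exchanges arginine and other cationic amino acids for neutral ones, was not called. It was at 13.0, 10.6 and 9.85 CPM in WT and at 13.9, 10.3 and 12.4 CPM in Utx KO, and the groups overlapped. The log2 fold change was 0.11 (95% interval −0.38 to 0.61, limma adjusted p = 0.844), and with 18 to 35 reads per library a change within that interval was not detectable at this depth. Slc7a6 is on the same chromosome as Slc7a5 but 15682 kb away. Its ratio to Slc3a2 was 0.0453 to 0.0547 in WT and 0.0414 to 0.0523 in Utx KO, a log2 difference of −0.05 (exact permutation p = 0.7) whose sign turned without WT replicate 1 (0.03) or Utx KO replicate 2 (0.04).

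The other light chains that pair with Slc3a2 were at or near 0. Slc7a8 and Slc7a10 had no read in any library. Slc7a7 reached 0.461 CPM, a single read, in WT replicate 2 alone. Slc7a11, the cystine carrier, was at 0.395 to 0.547 CPM in WT and 0.397 to 0.618 CPM in Utx KO, 1 read in each library. Slc7a5 thus made up 91.7%, 91.7% and 93.0% of light-chain reads in WT replicates 1, 2 and 3. It made up 81.3% (exact Clopper-Pearson 95% interval 75.0% to 86.5%), 84.8% (77.3% to 90.6%) and 80.7% (72.1% to 87.7%) in the Utx KO replicates, and the lower bounds in WT were 88.6%, 88.1% and 89.3%. These intervals cover counting error only, not the spread between libraries. All light chains together came to 150.2 ± 11.3 CPM in WT against 71.7 ± 4.48 CPM in Utx KO (SD, n = 3), or 0.616 to 0.685 against 0.270 to 0.287 reads per read of Slc3a2.

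Slc1a5 (ASCT2; ENSMUSG00000001918, chromosome 7, 16781340 to 16798274, plus strand), the sodium-dependent exchanger through which T cells take up glutamine, was not called. It was at 78.7, 70.0 and 67.3 CPM in WT and at 73.5, 74.3 and 75.4 CPM in Utx KO, so that the Utx KO values fell inside the WT range. The log2 fold change was 0.05 (95% interval −0.17 to 0.27, limma adjusted p = 0.851). Slc1a4 (ASCT1; ENSMUSG00000020142, chromosome 11, 20302180 to 20332713, minus strand), its relative for alanine, serine and cysteine, was at 8.30, 6.91 and 7.66 CPM in WT and at 10.7, 9.14 and 5.56 CPM in Utx KO. The Utx KO libraries spread to both sides of WT, with 9 to 27 reads each. The log2 fold change was 0.10 (95% interval −0.50 to 0.69, limma adjusted p = 0.899) and became −0.08 without Utx KO replicate 1. The ratio of Slc1a4 to Slc1a5 differed by 0.05 on the log2 scale (exact permutation p = 0.9), and by −0.14 and −0.02 without Utx KO replicates 1 and 2.

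Slc38a1 and Slc38a2 (SNAT1 and SNAT2), sodium-coupled carriers of glutamine, alanine and other small neutral amino acids, are neighbours on chromosome 15, 44.5 kb apart. Slc38a1 (ENSMUSG00000023169, 96571418 to 96642913, minus strand) was at 229, 271 and 217 CPM in WT and at 204, 208 and 206 CPM in Utx KO. All Utx KO libraries were below all WT libraries, and WT replicate 2 stood above the rest. The log2 fold change was −0.21 (SE 0.08, 95% interval −0.37 to −0.05, unadjusted p = 0.0144, limma adjusted p = 0.0999), not past the threshold. It was −0.11 (adjusted p = 0.513) without WT replicate 2 and was called only without WT replicate 3 (−0.27, adjusted p = 0.0471), the range over 16 alternatives being 0.0471 to 0.513.

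Slc38a2 (ENSMUSG00000022462, 96687392 to 96699730, minus strand), which cells raise when amino acids run short, was at 167, 164 and 160 CPM in WT and at 173, 156 and 174 CPM in Utx KO. The groups overlapped, with a log2 fold change of 0.03 (95% interval −0.13 to 0.19, limma adjusted p = 0.865). The ratio of Slc38a1 to Slc38a2 was 1.37, 1.65 and 1.35 in WT and 1.18, 1.33 and 1.18 in Utx KO. These groups did not overlap, at a log2 difference of −0.24 (exact permutation p = 0.1, the smallest possible, and 0.2 adjusted over the 4 ratios), which became −0.15 without WT replicate 2.

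Slc7a1 (CAT1; ENSMUSG00000041313, chromosome 5, 148327410 to 148399904, minus strand), the uptake route for arginine and lysine, was at 159, 152 and 138 CPM in WT and at 138, 158 and 131 CPM in Utx KO. The groups overlapped, and the log2 fold change was −0.07 (95% interval −0.26 to 0.11, limma adjusted p = 0.690). Slc43a1 (LAT3; ENSMUSG00000027075, chromosome 2, 84838850 to 84863594, plus strand), a sodium-independent carrier of branched-chain and other large neutral amino acids, was barely measured. It had 3, 1 and 4 reads in WT (1.19, 0.461 and 2.19 CPM) and 4, 4 and 3 reads in Utx KO (1.59, 2.28 and 1.85 CPM). Its log2 fold change of 0.42 had a 95% interval from −0.49 to 1.33 (limma adjusted p = 0.642) and became 0.75 with a pseudocount of 0.1, so no difference was detectable at this depth.

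**Figure D3:**
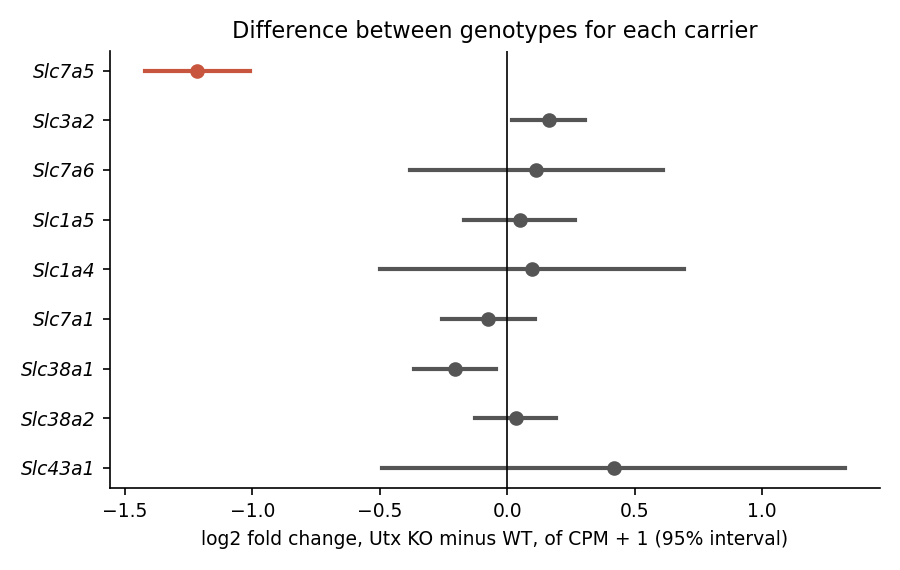
Log2 fold change of CPM + 1 (Utx KO minus WT) for each carrier, with the 95% interval from limma as a line. Slc7a5, in red, is the only carrier called, with an interval from −1.42 to −1.01, and the widest interval belongs to Slc43a1 (−0.49 to 1.33). Of all tested genes 10.8% were called.

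In the order of their tag levels in WT, Slc38a1 (239 ± 28.6 CPM) and Slc3a2 (227 ± 10.6) came first and overlapped, followed by Slc38a2 (164 ± 3.28), which lay just above Slc7a1 (149.8 ± 10.9) and Slc7a5 (138 ± 10.3; SD, n = 3), whose libraries overlapped. Slc1a5 (72.0 ± 5.94 CPM), Slc7a6 (11.2 ± 1.67), Slc1a4 (7.63 ± 0.696) and Slc43a1 (1.28 ± 0.868) lay apart from one another. In Utx KO the order was Slc3a2 (255 ± 9.68 CPM), Slc38a1 (206 ± 1.88), Slc38a2 (168 ± 10.3), Slc7a1 (142 ± 14.1), Slc1a5 (74.4 ± 0.940) and then Slc7a5 (59.0 ± 4.05), which lay below Slc1a5 in every library; Slc38a2 and Slc7a1 overlapped. Summed over the 9 carriers, the level was 1010.5 ± 45.9 CPM in WT against 927 ± 16.3 CPM in Utx KO. Without Slc7a5 it was 872 ± 45.6 and 868 ± 12.5 CPM. Slc7a5 accounted for 12.4% to 14.4% of the carrier reads in WT and for 5.97% to 6.57% in Utx KO. Groups did not overlap for 3 of the 9 carriers (Slc7a5, Slc3a2 and Slc38a1), beside 26.5% of all tested genes, and the same 3 had an unadjusted p under 0.05, beside 22.7% of all tested genes.

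None of the 9 carriers shares exon sequence with another gene on either strand in GENCODE M21, and none of the 50-nt pieces from the last 300 nt of their protein-coding transcripts occurs in a transcript of another gene. The genes lie on 7 chromosomes. Within 250 kb of Slc7a5, a window chosen after the values were seen, 3 other genes were tested and 0 passed with limma: Klhdc4 (log2 fold change 0.03), Banp (−0.17) and Jph3 (0.58, near the detection limit), with adjusted p of 0.937, 0.539 and 0.473; 0 had an unadjusted p under 0.05, and 0 were called by DESeq2 or by edgeR, which tested 2 of the 3.

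Promoters are shown for the heavy chain, the denominator of the ratio above, and for the carriers with a motif match. The RefSeq table (GRCm38.p6; 250 bases before to 50 after the start) held 8 windows for 6 of the 9 carriers; Slc7a5, Slc1a5 and Slc38a1 have no entry in it. Each window was searched on both strands for 3 motifs. These were the E-box CACGTG, bound by Myc among others, TGATGNAAT, a form of the amino acid response element core, and the AP-1 motif TGANTCA. Sequences that differ from these letters were not searched. The motifs do not overlap in these windows. Capitals mark a match, and the sequences, from chr19:8713848-8714147 (minus strand), chr5:148399855-148400154 (minus strand) and chr2:84840073-84840372 (plus strand), read 5′ to 3′.
Slc3a2: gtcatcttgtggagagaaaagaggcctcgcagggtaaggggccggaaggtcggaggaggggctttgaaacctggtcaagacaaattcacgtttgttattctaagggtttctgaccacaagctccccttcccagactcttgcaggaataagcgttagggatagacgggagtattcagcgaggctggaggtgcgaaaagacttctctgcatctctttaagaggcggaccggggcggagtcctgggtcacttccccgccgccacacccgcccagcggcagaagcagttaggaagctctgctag
Slc7a1: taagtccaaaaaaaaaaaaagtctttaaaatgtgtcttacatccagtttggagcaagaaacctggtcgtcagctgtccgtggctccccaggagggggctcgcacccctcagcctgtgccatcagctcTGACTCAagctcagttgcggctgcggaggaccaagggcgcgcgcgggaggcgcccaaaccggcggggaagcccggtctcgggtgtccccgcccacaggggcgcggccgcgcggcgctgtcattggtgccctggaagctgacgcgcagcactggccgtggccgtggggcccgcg
Slc43a1: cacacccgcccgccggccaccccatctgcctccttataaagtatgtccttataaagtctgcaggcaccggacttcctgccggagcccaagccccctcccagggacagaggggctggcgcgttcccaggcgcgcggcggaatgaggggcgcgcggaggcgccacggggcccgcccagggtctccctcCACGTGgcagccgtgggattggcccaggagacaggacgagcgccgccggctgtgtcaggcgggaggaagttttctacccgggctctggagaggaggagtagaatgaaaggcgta
The window of Slc3a2 held none of the 3 motifs. The AP-1 motif was found in 1 of the 8 windows, that of Slc7a1 shown here, and occurs in 7.81% of all 32851 promoter windows. The E-box was found in Slc43a1 alone and occurs in 7.15% of all windows. TGATGNAAT, the form of the amino acid response element core that was searched, was in none of the 8 windows and occurs in 0.965% of all.

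Of 37 other amino acid carriers, listed from their gene families, 14 were tested and 0 passed with limma, with a median log2 fold change of 0.04; 0 had an unadjusted p under 0.05, 0 of 14 passed with DESeq2 and 0 of the 9 that edgeR tested, and in 0 did the groups not overlap. The taurine carrier Slc6a6 was at 116 to 134 CPM in WT and 130 to 145 CPM in Utx KO. Slc43a2 (LAT4), another sodium-independent carrier of large neutral amino acids, was at 28.1 to 39.9 and 33.4 to 41.7 CPM. The lysosomal arginine-sensing carrier Slc38a9 was at 7.11 to 14.6 and 7.43 to 8.03 CPM, and 15 of the 37 had no read in any library.

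Genes that sense amino acids for mTORC1, the kinase complex that promotes growth, were called at close to the share of all tested genes. Of 33 tested, 3 rose, 1 fell and 29 were not called, 12.1% called beside 10.8% of all tested genes, with a median log2 fold change of −0.03. Castor1, a cytosolic arginine sensor, rose from 11.1 ± 2.21 to 20.3 ± 2.84 CPM (SD, n = 3) and Rragd, a Rag GTPase, from 3.33 ± 0.596 to 8.91 ± 2.73 CPM. Lamtor4, a subunit of the Ragulator complex that anchors Rag GTPases on lysosomes, was at 67.2, 70.5 and 62.9 CPM in WT and at 48.1, 45.7 and 39.5 CPM in Utx KO, and it fell at a log2 fold change of −0.58 (limma adjusted p = 0.00202, called in all 16 alternatives). Seh1l, shared by the GATOR2 complex and the nuclear pore, rose by 0.46 on the log2 scale (limma adjusted p = 0.0484). The calls of Castor1 and Rragd were lost with DESeq2 (adjusted p = 0.144 and 0.153), without WT replicate 2 (limma adjusted p = 0.0976 and 0.0691) and without Utx KO replicate 2 (0.0940 and 0.119). Seh1l, which has an antisense partner, lost its call in 11 of 16 alternatives (adjusted p up to 0.327), among them without WT replicate 1 (0.229) or 2 (0.109) and without Utx KO replicate 1 (0.0562), 2 (0.171) or 3 (0.0780).

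Transcription factors that act on carrier genes and genes of the amino acid response were also listed; Slc7a5 itself is known as a target of Myc and Atf4. Of 31 tested, 7 rose and 1 fell (25.8% called, beside 10.8% of all tested genes, 5.28% as higher and 5.51% as lower), with a median log2 fold change of 0.11; rises in a similar list were known from these libraries when it was chosen, so its direction is no independent evidence. Atf4 itself was at 716, 684 and 687 CPM in WT and at 763, 689 and 670 CPM in Utx KO (log2 fold change 0.02, limma adjusted p = 0.868; −0.03 without Utx KO replicate 1). Myc was at 54.6, 60.8 and 47.1 CPM in WT and at 89.8, 58.3 and 51.9 CPM in Utx KO (limma adjusted p = 0.336), with only Utx KO replicate 1 above the WT range. The Myc antagonist Mxd4 rose from 27.3 ± 1.96 to 42.4 ± 1.70 CPM (SD, n = 3), at a log2 fold change of 0.62.

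Among genes induced in amino acid shortage, Asns (asparagine synthetase) rose from 38.3 ± 1.55 to 53.6 ± 7.97 CPM, Atf5 from 5.36 ± 1.45 to 12.1 ± 0.437 CPM and Cebpb from 7.68 ± 1.34 to 16.6 ± 1.58 CPM (SD, n = 3). Phgdh, the first enzyme of serine synthesis, rose by 0.24 on the log2 scale, although 49.4% of its 3' end sequence occurs in other genes, mostly pseudogenes. Ddit3 and Ddit4, both stress-induced, rose by 0.80 and 0.69 on the log2 scale. Ddit3 was at 29.7, 42.9 and 50.3 CPM in WT and at 57.2, 82.2 and 73.5 CPM in Utx KO. Ddit4 was at 176, 210 and 253 CPM in WT and at 265, 369 and 406 CPM in Utx KO. For both genes the gap between the groups was smaller than the range within either group. Other amino acid response genes of the list were not called. Their log2 fold changes were −0.59 for Chac1, whose groups overlapped, and −0.09 for Aldh18a1. They were 0.01 for Psph, 0.02 for Mthfd2, 0.08 for Shmt2, 0.18 for Cebpg and 0.19 for Psat1. Atf3 (0.26), Trib3 (0.31, limma adjusted p = 0.0567) and Pycr1 (0.65, limma adjusted p = 0.0992) were not called either. For Trib3, Pycr1, Psat1 and Cebpg every Utx KO library lay above every WT library, and the groups of the other uncalled response genes named here overlapped. Over all tested genes, groups did not overlap for 26.5%. Hif1a, the oxygen-regulated transcription factor, fell from 172 ± 3.08 to 136 ± 5.48 CPM (log2 fold change of −0.34 with a limma adjusted p = 0.00482). Hif1a, Ddit3, Atf5, Cebpb and Mxd4 overlap exons of other gene models on the opposite strand, and Hif1a and Ddit3 also on their own. With DESeq2 the calls of Mxd4, Cebpb, Ddit4, Atf5, Phgdh and Asns were lost (adjusted p = 0.0817, 0.0722, 0.0665, 0.153, 0.114 and 0.202). The call of Atf5 was lost without WT replicate 3 (limma adjusted p = 0.0626). That of Asns was lost without WT replicate 1 (0.0851), 2 (0.0554) or 3 (0.0702) or Utx KO replicate 2 (0.171), and that of Phgdh without WT replicate 1 (0.116) or 2 (0.114) or Utx KO replicate 1 (0.145) or 2 (0.0623).

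Enzymes that use the imported amino acids and the synthetases that load them onto transfer RNA were listed next. Of 19 tested enzymes 0 rose and 1 fell (5.26% called, beside 10.8% of all tested genes), with a median log2 fold change of 0.14. Shmt1, which converts serine to glycine, fell from 46.0 ± 3.88 to 33.1 ± 5.70 CPM (SD, n = 3, limma adjusted p = 0.0422). Of 20 tested synthetases 2 rose and 0 fell, a share near that of all tested genes, with a median log2 fold change of 0.07. The risers were the lysyl enzyme Kars (189 ± 3.91 to 224 ± 9.29 CPM) and the seryl enzyme Sars (log2 fold change 0.32). The leucyl enzyme Lars was not called (adjusted p = 0.770). Shmt1, which has an antisense partner, was not called with DESeq2 (adjusted p = 0.287), with a pseudocount of 0.1 (0.0503) or without WT replicate 1 (0.150) or 2 (0.153) or Utx KO replicate 2 (0.0787) or 3 (0.192). Kars was not called with DESeq2 (adjusted p = 0.149) or without WT replicate 1 (0.0896), 2 (0.0585) or 3 (0.0791) or Utx KO replicate 1 (0.0703) or 3 (0.0628).

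Of 10 tested surface carriers and receptors for other nutrients, 3 rose, 1 fell and 6 were not called, with a median log2 fold change of −0.07. Of all tested genes 5.28% rose and 5.51% fell. The transferrin receptor Tfrc, which takes up iron and rises with T-cell activation, was at 197, 221 and 202 CPM in WT and at 152, 171 and 167 CPM in Utx KO (log2 fold change −0.34, limma adjusted p = 0.00425), with every Utx KO library below every WT library. The nucleoside carrier Slc29a1 rose from 55.9 ± 6.54 to 83.9 ± 3.58 CPM (SD, n = 3; opposite-strand overlap with another gene model), the lipoprotein receptor Scarb1 from 22.7 ± 4.41 to 37.0 ± 2.72 CPM and the glucose carrier Slc2a3 by 0.33 on the log2 scale. Scarb1 was not called with DESeq2 (adjusted p = 0.0817). Slc2a1, the main glucose carrier of activated T cells, was at 193, 196 and 215 CPM in WT and at 183, 163 and 180 CPM in Utx KO (log2 fold change −0.20, limma adjusted p = 0.116; opposite-strand overlap with another gene model).

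**Figure D4:**
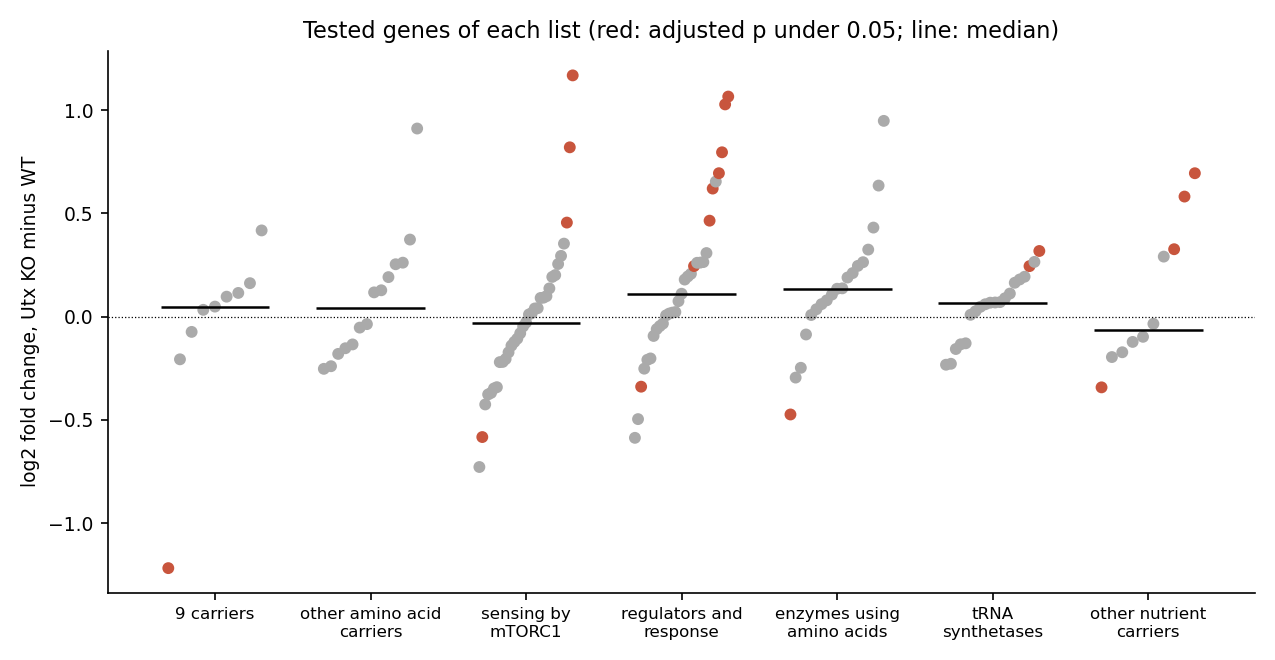
Log2 fold change of CPM + 1 (Utx KO minus WT) of each tested gene, 1 point per gene sorted within its list, red where the limma adjusted p is under 0.05, with a line at the median of each list. Among the 9 carriers only Slc7a5, at −1.22, is red, and the list of regulators and amino acid response genes has 7 red points above 0 and 1 below. Of all tested genes 10.8% were called, 5.28% as higher and 5.51% as lower.

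The genes whose pattern over the 6 libraries was most like that of Slc7a5 came from other families. Likeness was the Euclidean distance between gene-centred log2(CPM + 1) values, among 7452 other genes with a mean of at least 10 CPM. The 5 nearest were Ifitm1, an interferon-induced membrane protein (distance 0.126; 479 ± 17.2 CPM in WT against 210.5 ± 9.57 CPM in Utx KO, SD, n = 3), Gbp4 (0.209), Fgl2 (0.231), Rps15a (0.264) and Pld4 (0.289). Gbp4 and Rps15a share 26.0% and 39.5% of their 3' end sequence with other genes. The nearest carrier was Slc38a1 at a distance of 1.30, and Slc3a2 was at 1.70. This distance includes the difference between genotypes, so genes without a fall like that of Slc7a5 are far from it by construction. The ranking is a description without a test.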

How the data were processed

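The deposited files give 1 CPM value per gene and library, a gene's reads relative to all reads of the library, per the file headers. GRCm38 and mm10 are the builds named in the submitters' processing notes. No aligner, counter, strand setting or filter is given in the sources used here. RNA (500 ng) went into 3' end libraries, per the labels' protocols. Dividing each value by that of 1 read gave whole reads for 100% of 69302 values above 0 (tolerance 0.001 reads). Symbols were found for 25600 of 25655 identifiers.

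The test was limma-trend (limma 3.58.1, R 4.3.3) on log2(CPM + 1), fitted with genotype alone over 10590 genes with at least 1 CPM in 3 libraries; p-values were two-sided, with Benjamini-Hochberg adjustment over all of them and a threshold of 0.05. Alternatives (16) were pseudocounts of 0.1 and 0.5, no filter, a filter of 5 CPM, TMM and DESeq2 rescaling, edgeR 4.0.16, DESeq2 1.42.0 and limma-voom on the recovered reads, a replicate block, and leaving out each library. edgeR called 1106 genes. Ratios were compared by exact permutation. The fits were also run on simulated counts with the same dispersion setting for every gene. Changes were planted there only in genes with a mean of at least 10 CPM, above the level of Slc1a4 and Slc43a1.

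The carriers and the 6 pathway lists (154 genes) were chosen with earlier results of these data known, the fall of Slc7a5 included. Of each list, all called genes are named (at most 8 per direction by adjusted p), with Atf4, Myc, Hif1a, Slc2a1 and Tfrc whatever their result (a further gene of this rule is not reported here); other unchanged genes named beside them were chosen after their values were seen.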

Additional observations from a re-analysis of the deposited data

How the results depend on the processing

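Slc7a5 was called lower under all 16 alternatives, and no other carrier was called except Slc38a1 without WT replicate 3. Slc43a1 was tested in only 13 of the 16, not with edgeR, limma-voom or the filter of 5 CPM. With DESeq2 on the recovered reads, 551 genes were called in place of 1142, 7 of the tested pathway genes in place of 19, 1 sensing gene, 2 regulators and response genes, 0 enzymes, 1 synthetase, and Kdm6a (−0.59) was not called. The enzyme count was 0 with a pseudocount of 0.1 and 2 with the replicate block. Leaving out 1 library at a time gave 747 to 1056 called genes (747 without WT replicate 2), 1 to 2 carriers, 12 to 18 pathway genes (12 without WT replicate 2), 1 to 4 sensing genes, 0 to 2 enzymes and 1 to 2 synthetases. It gave −0.71 to −0.46 for Kdm6a, lower throughout. The sign was uncertain for the log2 ratios of Slc7a6 to Slc3a2 (−0.11 to 0.043) and of Slc1a4 to Slc1a5 (−0.14 to 0.30). The same held for the log2 fold changes of Slc1a4 (−0.078 to 0.34) and Atf4 (−0.034 to 0.061). Where a call was lost or a sign turned, the cause was not tested.

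Over all tested genes, no pairing of the samples by replicate number was seen. Deviations from the group means correlated at −0.00963 to 0.00602 between same-numbered libraries, and no library correlated best with that of its own number. Pairing in a part of the genes was not tested, and the labels do not say whether the numbers mark a shared litter or day. The replicate block gave 1065 calls, left Slc7a5 at −1.22 (limma adjusted p = 5.39e-08), and moved the call of Seh1l (adjusted p = 0.0540) among the pathway genes named; the log2 ratio of Slc7a5 to Slc3a2 was −1.38 within pairs (exact p = 0.25, the smallest that 3 pairs allow). Depth limits Slc43a1, Slc1a4 and Slc7a6, with at most 35 reads per library.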
